A study of Mus musculus with 8 samples.

Results

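The passage from meiosis to the haploid phase was described in normal mouse germ cells by comparing 2 arrays of wild type round spermatids with 2 arrays of wild type late spermatocytes. These 4 arrays were taken from the 8 of the series by their labels, and no measured value entered the choice. Both cell types came from testes of male Hr6b+/+ mice of 4 to 5 weeks on the FVB background, whose parents descended from backcrosses of Hr6b+/- animals to FVB. Testes were digested with collagenase and trypsin, and cells were separated by sedimentation at unit gravity (StaPut) and then on Percoll gradients. The labels give a purity above 80% from stained slides, so each fraction can hold other cells. The remaining 4 arrays, of Hr6b-/- spermatocytes and round spermatids prepared in the same way, served in the main comparison only to estimate the spread between replicate arrays. They also entered the alternative scalings given below, which were made over all 8 arrays.

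Late spermatocytes are cells in meiotic prophase, which have replicated their DNA, recombined their homologous chromosomes and compacted the X and Y chromosomes into a silent body. After the meiotic divisions follow the round spermatids, haploid cells that transcribe a large set of genes for the sperm head and tail before their chromatin is compacted by protamines. Many of these transcripts are stored and translated later. In addition, many genes of housekeeping processes are served in male germ cells by isozymes or paralogs that somatic cells do not use.

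Each array measured 45037 probe sets besides the 64 control probe sets, short oligonucleotide sets that together bind 1 transcript region. Signal is the deposited RMA value on the linear scale, and pairs of signals are given in the order of replicate 1 and 2. A log2 fold change is always the spermatid value minus the spermatocyte value. A probe set was called higher or lower in spermatids at an adjusted p under 0.05 from limma. Each of 18193 genes was represented by the probe set with the highest mean over the 4 wild type arrays, among probe sets annotated to that gene only. Replicate arrays correlated at r = 0.995 for spermatocytes and 0.996 for spermatids across probe sets, and arrays of the 2 cell types at 0.843 to 0.864. On each array, 33.8% to 35% of the probe sets had a signal of 100 or more. Nothing in the labels says whether replicates came from separate mice, so p-values measure the spread between these samples, and permuting 2 arrays against 2 could give no p under 0.333.

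In total, 24016 probe sets (53.3%) differed between the cell types, of which 11720 (26.0%) were higher and 12296 (27.3%) were lower in spermatids. With the medians of expressed autosomal probe sets set equal, as explained below, the split was 27885 higher and 9324 lower. At least 2-fold differences were found for 4746 higher and 7589 lower probe sets, and 8-fold differences for 1480 and 980. Counted by gene, 6111 genes (33.6%) were higher and 5374 (29.5%) were lower, together 63.1%, and 6708 were not called. The spermatid and spermatocyte arrays did not overlap for 83.7% of all genes, and this share is the background for every statement on overlap below. Large rises were more extreme than large falls: 1081 genes rose at least 8-fold and 52 at least 64-fold, whereas 450 fell at least 8-fold and 0 fell at least 64-fold. In these bulk samples a lower signal can come from fewer cells of a type or from less RNA of that gene per cell, and these cannot be told apart.

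Groups of genes were also defined by level and change together. A gene was called on when it rose at least 8-fold from a mean signal below 100 to one of 100 or more, which held for 736 genes (4.05%). Off was the mirror image and held for 257 genes (1.41%). Level genes had a signal of 100 or more in both cell types and a 95% confidence interval of the log2 fold change within -1 and 1, and there were 3216 of these (17.7%), 762 of which were called higher and 857 lower by less than 2-fold. The on genes had a median signal of 947 in spermatids and a median log2 fold change of 4.62. The off genes had a median signal of 581 in spermatocytes and a median log2 fold change of -3.60. A further 341 genes rose at least 8-fold from a spermatocyte signal that was already 100 or more, including Tnp1, Prm1, Prm2, Akap4 and Odf1. Of the 10377 genes with a signal of 100 or more in at least 1 cell type, 37.8% were higher and 45.5% lower, with a median log2 fold change of -0.15. The counts of the histone exchange, energy isozyme, meiotic division, chaperone, cholesterol and ubiquitin lists below lie near these shares and are no result about those lists. The 7816 genes below 100 in both cell types had 28.0% higher and 8.39% lower, with a median of 0.21.

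**Figure D1:**
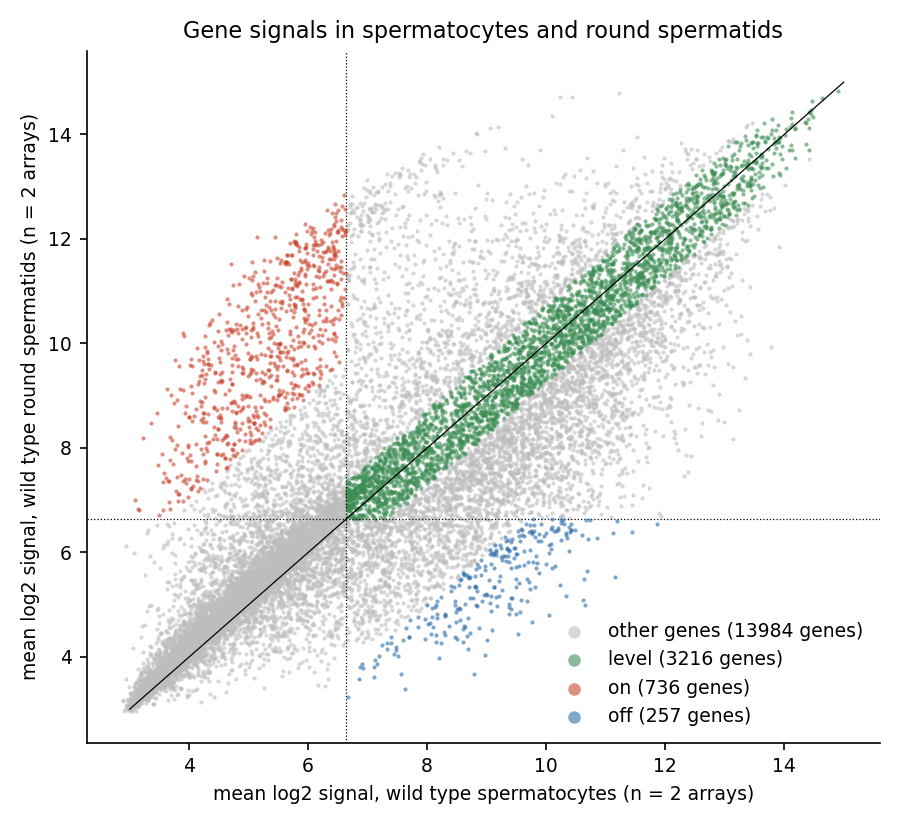
Mean log2 signal of 18193 genes in wild type spermatocytes (x axis) and round spermatids (y axis), n = 2 arrays each, with dotted lines at a signal of 100 and a solid line of equal signal. On genes (736) fill the upper left, off genes (257) the lower right, and level genes (3216) lie along the diagonal above 100; grey points are all other genes.

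The scaling of the arrays bears on small changes. Expressed autosomal probe sets had a median log2 value of 9.73 in spermatocytes and 9.36 in spermatids, a shift of -0.38. If these medians are set equal, each log2 fold change rises by that amount, 901 genes are on, 155 are off and 3133 are level, and 2379 of the 3216 level genes keep that status. Where a called gene or a list median given below turns its direction under equal medians, that value stands with it. Genes that were not called and had a log2 fold change between -0.38 and 0 turn as well, and they have no settled direction.

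Among the spermatocyte arrays, replicate 1 carried more signal of haploid genes than replicate 2. Of 481 genes that rose at least 8-fold and reached 2000 or more in spermatids, 432 had the higher signal on spermatocyte replicate 1, with a median ratio of 1.42 between the arrays. The median spermatocyte signal of these genes was 3.08% of the spermatid signal on replicate 1 and 2.13% on replicate 2. Without spermatocyte replicate 1, 798 genes were on and 288 off, and without replicate 2, 685 were on and 225 off. In spermatids, the 115 genes that fell at least 8-fold from 2000 or more retained a median of 8.50% and 8.16% of their spermatocyte signal, shares that the 8-fold limit itself keeps low.

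The labels were checked against markers of the cell types. Haploid chromatin proteins and acrosomal genes were high on both spermatid arrays, as described below, and the prophase genes Sycp3, Hormad1 and Spo11 were higher on both spermatocyte arrays. Prophase genes as a set did not separate the fractions in this way. Of 14 genes of the synaptonemal complex and its cohesins, 7 were lower in spermatids, 3 higher and 4 not called. Of 22 recombination genes, 12 were lower, 2 higher and 8 not called. Among all genes with a signal of 100 or more in at least 1 cell type, 45.5% were lower and 37.8% higher. Kit, Stra8 and Zbtb16, which mark spermatogonia or the entry into meiosis, stayed below 100 on all 4 arrays. Of 18 measured markers of spermatogonia and early meiosis, 11 were below 100 in both cell types, and their median log2 fold change of -0.22 was 0.16 under equal medians. Id4, which marks spermatogonial stem cells and is also known from spermatocytes, was at 7738 and 8503 in spermatocytes and 381 and 342 in spermatids, so it was high in spermatocytes and lower in both spermatid samples.

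Sertoli cell markers moved with the comparison. Of 16 measured markers of these somatic nurse cells, 10 were lower in spermatids and 1 was higher, and their summed signal was 6557 and 8256 on the spermatocyte arrays and 1021 and 1131 on the spermatid arrays. Clu, which encodes the secreted chaperone clusterin, was at 2102 and 2668 in spermatocytes and 187 and 298 in spermatids. Aard and Cst12 were at 1307 and 1979.5 and at 943 and 1202 in spermatocytes and below 35 on every spermatid array. By contrast, Wt1, Sox9 and Gata4, transcription factors that define Sertoli cells, and the receptor gene Fshr stayed below 75 on all 4 arrays, Wt1 being called lower in spermatids. The 5 Leydig cell markers summed to between 233 and 321 on each array, the 6 peritubular markers to between 390.0 and 471 and the 12 endothelial, macrophage and blood markers to between 621 and 846. The part of these cells in the changes below was not tested.

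The 12 genes with the largest rise were all on and included a gene of the sperm surface, a chaperone and an ion channel subunit. Kcne3, a subunit that modulates potassium channels, had the largest rise, with signals of 51.8 and 24.1 in spermatocytes and 3894 and 4518 in spermatids. Both spermatid arrays lay far above both spermatocyte arrays, a difference of 6.89 ± 0.29 on the log2 scale (standard error, limma adjusted p = 1.49e-08). Spam1, the hyaluronidase on the sperm surface that helps sperm through the cumulus, followed with 34.7 and 19.7 in spermatocytes and 2975 and 2905 in spermatids and a rise of 112-fold. Dnajb7, a testis chaperone of the DnaJ family, rose 80.8-fold, and Izumo3, a paralog of the sperm-egg fusion protein gene Izumo1, 76.1-fold. The other genes of the 12 largest rises were Cfap97d1, Lrrc72, Erich3, Efcab12, Armh2, the X-linked gene Fam122c, Fam71d and Ifi209, with log2 fold changes from 6.24 to 6.59. The highest spermatocyte signal among these 8 was 105, in Fam71d, and the lowest spermatid signal was 1057, in Efcab12. In this ranking, 3 clone-named or predicted genes were passed over.

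The proteins that replace histones in the spermatid nucleus rose as a whole. These were 8 of 8 measured members of a list of 10, with a median log2 fold change of 5.17 against 0.14 over all genes. Tnp1, the transition protein that precedes the protamines, was at 1813 and 1053 in spermatocytes and 27205 and 26421 in spermatids. Tnp2 rose by a log2 fold change of 5.07, Prm2 by 4.26 and Prm1, which together with Prm2 compacts the sperm nucleus, by 3.58 (standard errors 0.28, 0.23 and 0.20). Prm1 already had signals of 2935 and 1955 in spermatocytes, and the higher of these was again replicate 1. Hmgb4, a high mobility group protein of spermatids, rose from 301 ± 94.2 to 13882 ± 203 (SD, n = 2), H1f7, the linker histone of elongating spermatids, had a log2 fold change of 5.38, and Prm3 one of 5.36. H2al2a, a histone variant that cooperates with transition proteins, was the only member that met the rule for on, since all others had a mean signal above 100 in spermatocytes.

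The sequences ahead of 3 of these genes are shown because transition proteins and protamines are the best known products of the haploid phase, and Prm1 and Prm2 lie next to each other on chromosome 16. Each line gives the 120 bases just before the annotated start, from RefSeq on build GRCm38.p6, 5′ to 3′ on the strand of the gene. Of the 4 motifs searched below, none is in the stretches of Tnp1 and Prm1, and that of Prm2 holds the TATA box core on the opposite strand, so nothing is marked in capitals.
Tnp1 (chr1:73015900-73016019, minus strand): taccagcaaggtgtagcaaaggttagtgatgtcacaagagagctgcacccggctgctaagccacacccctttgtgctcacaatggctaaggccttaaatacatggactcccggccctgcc
Prm1 (chr16:10796824-10796943, minus strand): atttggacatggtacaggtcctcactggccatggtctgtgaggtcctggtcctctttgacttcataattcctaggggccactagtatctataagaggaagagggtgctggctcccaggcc
Prm2 (chr16:10792106-10792225, minus strand): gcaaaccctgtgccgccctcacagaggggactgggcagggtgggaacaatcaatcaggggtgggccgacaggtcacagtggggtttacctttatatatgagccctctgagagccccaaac

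The factors that prepare histone removal changed in both directions, 4 of 12 higher and 6 lower. Cdyl, a chromodomain protein, was at 111 and 88.7 in spermatocytes and 4572 and 4559 in spermatids, and Camk4, a kinase of spermatids that acts on Prm2, at 51.9 and 57.7 in spermatocytes and 1610.0 and 1669 in spermatids. Both were on, although Cdyl rested on 1 of 3 probe sets and its other 2 were called lower, so that the median over its probe sets was -0.58. Chd5, a chromatin remodeller of spermatids, rose by 2.65. Brdt, the testis bromodomain protein that reads acetylated histones, was level at 6892 and 7404 in spermatocytes and 7149 and 6903 in spermatids, with a 95% interval of -0.27 to 0.22, while of its 2 other probe sets 1 was called higher and 1 lower. Rnf8, a ubiquitin ligase of histones, fell from 1062 ± 78.7 to 128 ± 4.56 (SD, n = 2), the histone chaperone gene Nap1l4 fell by 2.08 and Parp1 by 1.15 on the log2 scale. Of 7 measured testis and replacement histones 4 were lower and 1 higher. H2ax, whose phosphorylated protein marks the sex body, fell by 1.92, H2az1 by 1.52 and Macroh2a1 by 1.44, while H1f6, the testis linker histone, had a log2 fold change of 1.02.

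The acrosome is the vesicle over the sperm nucleus that is built in round spermatids. Of 27 measured genes for acrosomal and gamete-binding proteins, 21 were higher and 4 lower, with a median of 1.31. At least 8-fold rises were seen in 12 of them, including Spaca7 (6.20), the hyaluronidase gene Hyal5 (6.12), Acrv1 (6.03) and Izumo1, which binds the egg receptor (5.48). Acr, the gene of the protease acrosin, was already high before the divisions, with 3218 and 2865 in spermatocytes and 6048 and 6518 in spermatids, and rose only by 1.05. Level genes made up 6 of the 27. Tex101, a surface protein of germ cells, moved the other way and fell from 10463 ± 2302 to 648 ± 45.3 (SD, n = 2), and Gopc, a Golgi protein needed for acrosome formation, fell by 2.30 on the log2 scale. Pick1, a partner of Gopc in vesicle transport, was lower by 0.39, which equal medians reduce to near 0.

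Genes for the cytoskeleton of the sperm head and for the accessory structures of the tail rose in nearly all cases. In the sperm head, 12 of 14 measured members were called higher and 1 lower, with a median of 4.26. Capza3, the germ cell capping protein of actin, was at 173 and 99.3 in spermatocytes and 7904 and 7505 in spermatids, Actl7a, an actin-related protein of the acrosome, rose 46-fold, and Actrt2, of the same family, 53.8-fold. Cep131, a centrosomal protein, was the exception and fell by 1.20. For fibrous sheath and outer dense fibres, 13 of 14 measured members were called higher and 0 lower. Akap4, the main protein of the fibrous sheath and X-linked, was at 388 and 265 in spermatocytes and 11759 and 11465 in spermatids, and Odf1, a core protein of the outer dense fibres, at 731 and 469 in spermatocytes and 17581 and 18734 in spermatids. Odf3, Cabyr, a calcium-binding protein of the fibrous sheath, and Spag4 had log2 fold changes of 5.80, 5.67 and 5.51, and Akap3 one of 4.92. All 7 measured members of the testis-specific serine kinases and their substrate were higher, Tssk2 with 218 and 127 in spermatocytes and 8451 and 8800.2 in spermatids and Tssk4, Tssk3 and Tssk6 with log2 fold changes of 5.90, 5.68 and 4.85.

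The axoneme and the transport system that builds it did not follow this pattern. Of 31 axonemal genes 18 were higher, 9 lower and 10 level, with a median of 0.36, or 0.74 under equal medians. Spag6, of the central pair, was on with 113 and 63.3 in spermatocytes and 5600.5 and 5954 in spermatids, Tekt4, a tektin of the flagellum, rose from 848 ± 278 to 10976 ± 127 (SD, n = 2), and Dnaic2, an intermediate chain of outer arm dynein, rose by 3.0. Tekt1 had a smaller rise of 1.16. The axonemal dynein heavy chains Dnah1, Dnah2 and Dnah8 fell instead, by 1.20, 1.14 and 0.97, but a second probe set of Dnah1 and of Dnah2 was called higher. Rsph1, a radial spoke protein, fell from 21902 ± 215 to 11877 ± 123. In intraflagellar transport, 6 of 26 members were higher and 16 lower, with a median of -0.75, which is -0.38 under equal medians. Ttc8, Bbs1 and Ift80 fell most, by 3.88, 3.39 and 3.16, the first 2 being subunits of the BBSome, a complex that carries cargo in cilia. Ift80 did so on 1 of its 2 probe sets, the other being at -0.47 and not called. Another BBSome subunit, Bbs5, rose by 2.97, Kifap3, of the kinesin that moves the transport trains, by 2.65, and its motor Kif3b by 1.09 (-0.40 as the median of its 4 probe sets). The second probe set of Kifap3 was at -0.19 and not called.

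Ion transport genes of sperm were higher or not called. Of 14 measured members 8 were higher and 0 lower, and 4 were level. Catsper1 and Catsper3, pore subunits of the calcium channel of the sperm tail, were on, with signals of 112 and 52.1 in spermatocytes and 3709 and 4138 in spermatids for the former and a log2 fold change of 5.88 for the latter. Lrrc52, which goes with the sperm potassium channel, rose by 5.51, and Atp1a4, the sodium pump subunit of sperm, by 5.36.

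Germ cell isozymes of energy metabolism were split. Of 19 members 9 were higher, 7 lower and 9 level. Aldoart1 and Aldoart2, retrotransposed aldolases, and Gapdhs, the glyceraldehyde phosphate dehydrogenase of the fibrous sheath, had log2 fold changes of 5.93, 5.42 and 5.00. Oxct2a, of ketone body use, rose by 5.47 and Pgk2, the phosphoglycerate kinase of germ cells, by 2.90. Ldhc, the lactate dehydrogenase of sperm, was high in both cell types, with 25506 and 25351 in spermatocytes and 26839 and 26517 in spermatids and an interval of -0.16 to 0.30. Cyct, the testis cytochrome c, fell from 7305 ± 563 to 2489.8 ± 46.3 (SD, n = 2), and Slc25a31, the germ cell carrier for ADP and ATP, by 1.10. Pdha2, of pyruvate dehydrogenase, and the glucose transporter gene Slc2a3 were lower by 0.46 and 0.71 and met the rule for level. Of the somatic glycolytic isozymes, Pkm rose by 1.93 and Aldoa by 1.77, whereas Ldhb, Hk2 and Aldoc fell by 1.07, 1.08 and 1.17. In that list 5 of 14 were higher (35.7%) and 4 lower (28.6%). These counts lie near the 33.6% and 29.5% of all genes and are no result about the list.

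Transcription factors of the haploid programme moved both ways, 10 of 19 higher (52.6%) and 8 lower (42.1%). Of genes with a signal of 100 or more in at least 1 cell type, 37.8% were higher and 45.5% lower. Fhl5, the coactivator of CREM also known as ACT, was at 199 and 116 in spermatocytes and 8678 and 7756 in spermatids. Sox5 rose by 5.34 and Rfx1, of the family that binds ciliary gene promoters, by 4.82. Crem, the master regulator of haploid transcription, was at 1989.9 and 2121 in spermatocytes and 6361 and 6030.0 in spermatids, a log2 fold change of 1.59, but 3 of its 4 probe sets were called lower and their median with it was -1.21. Rfx2 was level, at 2356 and 2008 in spermatocytes and 2371 and 2579.9 in spermatids, while of its 4 probe sets 1 was called higher and 1 lower. Mybl1, the regulator of pachytene genes known as A-MYB, fell from 348 ± 53 to 149.9 ± 26 (SD, n = 2), Sox30 fell by 1.15 and Jmjd1c, Gmcl1 and Creb1 by 2.12, 1.96 and 1.72 on the log2 scale. Of 6 probe sets of Creb1, 2 were called higher. Tcfl5, a germ cell factor of spermatocytes, was lower by 0.40, which equal medians bring to near 0. The list median of 0.40 was -0.0034 with the median probe set of each gene.

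**Figure D2:**
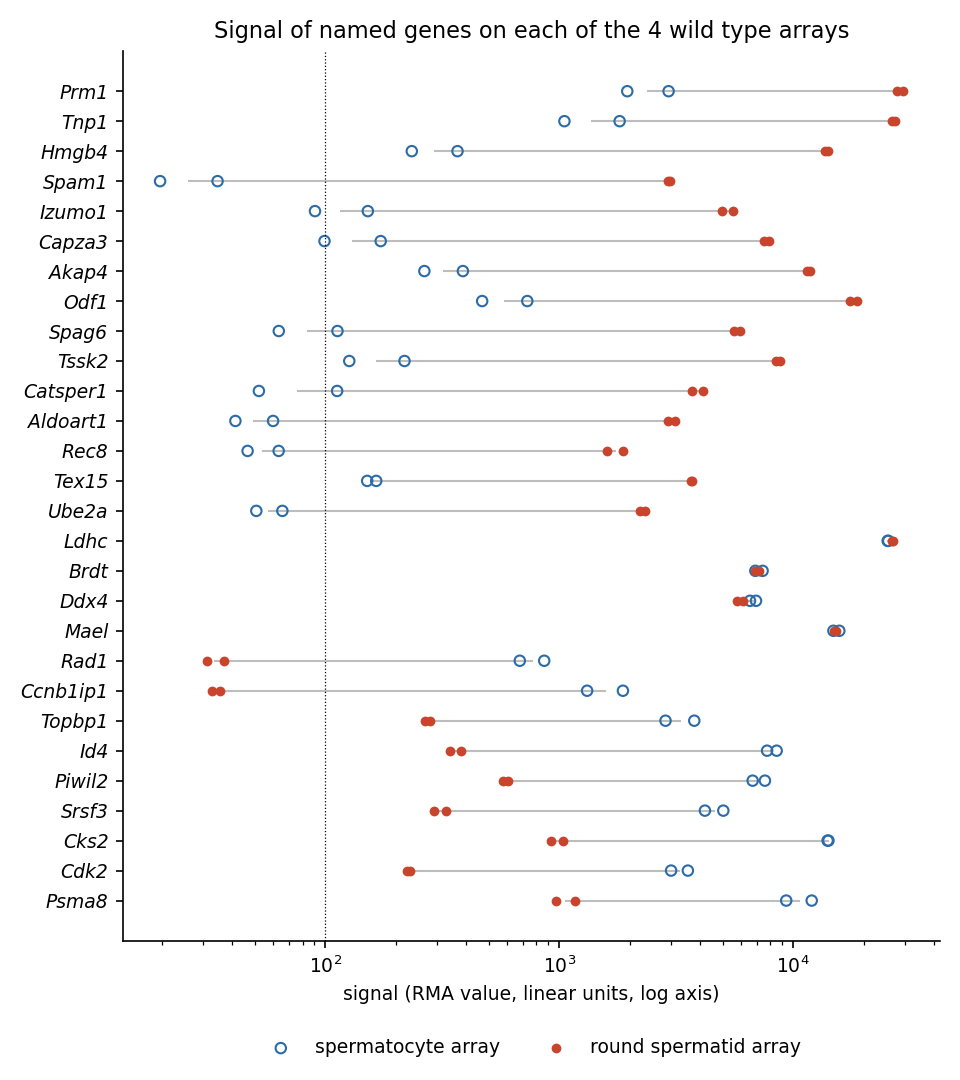
Signal (x axis, linear RMA units on a log scale) of 28 named genes on each wild type array, with open circles for the 2 spermatocyte arrays, filled circles for the 2 round spermatid arrays, a grey line between the group means and a dotted line at 100. For the haploid genes at the top the spermatid arrays lie to the right, for Ldhc, Brdt, Ddx4 and Mael the arrays fall together, and for the genes at the bottom the spermatid arrays lie to the left.

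Genes of meiotic chromosome structure did not fall as 1 group. In the list of the synaptonemal complex and its cohesins, 3 of 14 members were higher, 7 lower and 5 level, with a median of -0.39 that equal medians bring to -0.01. Sycp3, of the lateral element, was at 8596 and 9065 in spermatocytes and 2698 and 2535 in spermatids, lower on both spermatid arrays, and Hormad1, an axis protein that leaves synapsed chromosomes, fell by 2.32. Tex12, of the central element, fell by 3.74, and 4930447C04Rik, also called Six6os1, was off with a log2 fold change of -3.55. Sycp1, of the transverse filaments, was level, with 3726 and 5293 in spermatocytes and 4105 and 4116 in spermatids. Rec8, the meiotic cohesin subunit, went the other way and was on, at 63.3 and 46.6 in spermatocytes and 1599 and 1880.1 in spermatids, a difference of 5.00 ± 0.16 on the log2 scale (standard error, limma adjusted p = 2.71e-09) on its single probe set. Syce2, another central element gene, rose by 1.59, and the X-linked gene Tex11 by 1.98, from 24.3 and 28 to 110.3 and 96.3.

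Of 22 recombination genes 12 (54.5%) were lower and 2 (9.09%) higher, beside the 45.5% and 37.8% of genes with a signal of 100 or more. The list median was -0.40, which equal medians bring to -0.03. Ccnb1ip1, which encodes the crossover factor HEI10, was off, at 1317 and 1873 in spermatocytes and 35.6 and 32.8 in spermatids, a difference of -5.52 ± 0.20 on the log2 scale (standard error, limma adjusted p = 6.52e-09). Mlh3, a mismatch repair protein at crossovers, fell from 1351 ± 126 to 125 ± 15.9 (SD, n = 2), Spo11, which makes the double-strand breaks, fell by 2.02, and Rpa2, a single-strand binding protein, by 3.21. Tex15 rose from 158 ± 9.91 to 3678 ± 14.8, although it is known from recombination in prophase. Prdm9, which sets break sites and was the other member called higher, and Dmc1, the meiotic recombinase, were below 100 on all 4 arrays.

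Factors that silence unsynapsed chromosomes and the sex body had 12 of 16 members lower and 3 higher, with a median of -1.72 that was -0.80 with the median probe set of each gene. Rad1, a subunit of the checkpoint clamp, was off, with 679 and 863 in spermatocytes and 37 and 31.1 in spermatids. Topbp1, which activates the checkpoint kinase ATR, fell from 3314 ± 659 to 275 ± 9.04 (SD, n = 2). This was on 1 of its 2 probe sets, the other being at -0.17 and not called. Atr itself fell by 2.76, with all 3 of its probe sets called lower. Mdc1, which spreads H2AX phosphorylation over the sex chromosomes, fell by 1.83. Scml2, an X-linked germ cell Polycomb protein, and Brca1 had log2 fold changes of 1.78 and 0.82. Ubr2, a ubiquitin ligase of the N-degron pathway, had 0.48, with 1 of its 4 probe sets called lower.

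Genes of the meiotic divisions moved both ways, 12 of 29 higher (41.4%), 13 lower (44.8%) and 11 level, shares close to those of all genes with a signal of 100 or more. Cdc25c, the phosphatase that activates CDK1, was on at 76.9 and 59 in spermatocytes and 547 and 652 in spermatids, Plk1, a mitotic kinase, rose from 452 ± 191 to 3009.9 ± 206 (SD, n = 2), and Ccna1, the cyclin needed for the meiotic division, rose by 2.49. For Plk1 and Ccna1 spermatocyte replicate 1 was the higher array. Cks2, a small CDK subunit, was at 14033 and 14154 in spermatocytes and 919 and 1038 in spermatids. Cdk2 fell by 3.85 on 1 of its 2 probe sets, the other being at 0.049 and not called. Sgo2a, the protector of centromeric cohesion, fell by 3.87. Cdk1 fell by 0.76. Cdc20, an activator of the anaphase-promoting complex, was lower by 0.37, which equal medians turn to 0.0029. DNA replication genes had 17 of 24 members lower and 4 higher. Mcm3, Mcm6 and Lig1 fell by 2.59, 2.34 and 2.25, Pcna, the sliding clamp, by 0.83 and Top2a by 0.75, whereas Rrm2, of ribonucleotide reductase, rose by 2.79, Orc1 by 1.11 and Fen1 by 0.76.

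The largest falls of all genes were smaller than the largest rises. Aard and Cst12, both on the Sertoli list above, were among the 12, with log2 fold changes of -5.66 and -5.26. Kbtbd6, an adaptor of a ubiquitin ligase, was at 2176 and 2376 in spermatocytes and 44.4 and 47.6 in spermatids, a difference of -5.63 ± 0.12 on the log2 scale (standard error, limma adjusted p = 1.53e-09). Ccne2, a cyclin that acts with CDK2, fell 36-fold, from 1291 ± 177 to 35.8 ± 3.96 (SD, n = 2). Rnf2, the catalytic subunit of Polycomb complex 1, fell 35.3-fold, Sec23a, of the vesicle coat for export from the endoplasmic reticulum, 33.3-fold, and Exosc7, of the RNA exosome, 32.8-fold. Rnf2 had 5 probe sets, of which 2 were called lower and 2 higher. The zinc finger genes Zfp389 and Zik1, the kinase gene Sbk1 and Fam13c had log2 fold changes from -5.14 to -4.85. The other member of the 12 was Ccnb1ip1, described above, and 5 clone-named or predicted genes were passed over.

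Small RNA and RNA-binding genes of germ cells declined with exceptions. In the PIWI pathway, which silences transposons, 12 of 18 members were lower and 3 higher, with a median of -1.14 (-0.76 under equal medians). Piwil1, the MIWI protein gene of pachytene cells and round spermatids, was at 8388 and 8575 in spermatocytes and 785 and 768 in spermatids, Piwil2 fell by 3.59 and Tdrd5, a tudor protein of germ granules, fell by 3.97. Ddx4, the VASA helicase, and Mael were level, at 6541 and 6938 in spermatocytes and 6132 and 5742 in spermatids for the first and 14860.0 and 15750.0 in spermatocytes and 14932 and 15313 in spermatids for the second. Gtsf1 and Tdrd7 had log2 fold changes of 0.56 and 1.00, and Rnf17 one of 0.91 that was -0.18 as the median of its 4 probe sets. Among 24 translational regulators 16 were lower and 3 higher. Celf1, Cpeb2 and Spin1 fell by 4.19, 3.66 and 3.32, and Dazl and Boll, of the DAZ family, by 2.04 and 1.33. Ddx25, a helicase that exports and stores messages, was level at 11443 and 10806 in spermatocytes and 12483 and 12210.0 in spermatids, and Ybx2, which binds stored messages, was level at 13158 and 11461 in spermatocytes and 9388 and 10700.0 in spermatids. Papolb, the cytoplasmic poly(A) polymerase of testis, rose from 2234 ± 305 to 7740.5 ± 325 (SD, n = 2), and Pum2, at 0.64, was -1.42 with the median probe set.

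Genes for RNA processing, translation, protein degradation and respiration were mostly lower in spermatids, to different degrees. Of 40 spliceosome genes 33 were lower and 3 higher, with a median of -1.16, which is -0.79 under equal medians. Srsf3, a splicing factor of the SR family, was at 4197 and 5029 in spermatocytes and 290.4 and 327 in spermatids, and all 6 of its probe sets were called lower. U2af1, which recognises the 3′ splice site, and Snrpb, of the Sm ring, fell by 3.28 and 3.26, Prpf8, at the core of the spliceosome, by 1.72, and Snrnp70 by 0.68. Hnrnpa1, Sf3b4 and Ddx46 were higher, by 1.09, 0.63 and 0.42, but 2 of the 5 probe sets of Ddx46 were called lower.

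Autosomal genes for cytosolic ribosomal proteins were lower in 32 of 41 cases and higher in none, but 23 were level and the median was -0.59, or -0.22 under equal medians. Rpl37a was level at 21049 and 21410.0 in spermatocytes and 19082 and 19163 in spermatids, with 1 of its 3 probe sets called lower, and Rplp0 was lower by 0.37, which equal medians turn to 0.0072. Rpl10a fell most, from 9486 ± 857 to 1143 ± 87.6 (SD, n = 2), and Rpl12 and Rps3 fell by 2.61 and 1.84, with 1 of the 3 probe sets of Rps3 called higher. Of 31 translation factors 5 were higher and 20 lower, with a median of -0.38 that equal medians bring to -0.0039. Eif4h, which stimulates the helicase EIF4A, fell from 7257 ± 288 to 752 ± 32.1 (SD, n = 2), and Eif2b1 and Eif2b3, subunits of the exchange factor for EIF2, by 3.22 and 2.57. Eif5b rose by 1.5, Eef1d by 0.79 and Eif3a by 0.41, and 1 probe set each of Eif5b and Eif3a was called lower.

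Proteasome subunits were lower in 25 of 39 cases and higher in 4, with a median of -0.68, or -0.31 under equal medians. Psma8, the testis subunit of the core particle, was at 9341 and 12004 in spermatocytes and 1174 and 974 in spermatids, and Psma2 and Psmd14 fell by 2.24 and 2.23. Psma7, the somatic counterpart of Psma8, fell by 1.91. The X-linked gene Psmd10, a chaperone of the regulatory particle, was on at 33.2 and 26.3 in spermatocytes and 1130.4 and 1036 in spermatids. Psme3, an activator of the core, had 2.34 (-0.099 with the median probe set), and Psma6 rose by 1.29 on all 4 of its probe sets. Of 71 respiratory chain genes 52 were lower and 2 higher, with a median of -0.67, or -0.29 under equal medians. Sdhc, a membrane subunit of succinate dehydrogenase, fell from 2332 ± 9.88 to 212 ± 6.58 (SD, n = 2), Cyc1, of complex III, fell by 2.74, and Cox7c by 2.59. Both higher members, Ndufa12 and Ndufb4, changed by less than 1 on the log2 scale, and Ndufb4 was below 20 on all 4 arrays.

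**Figure D3:**
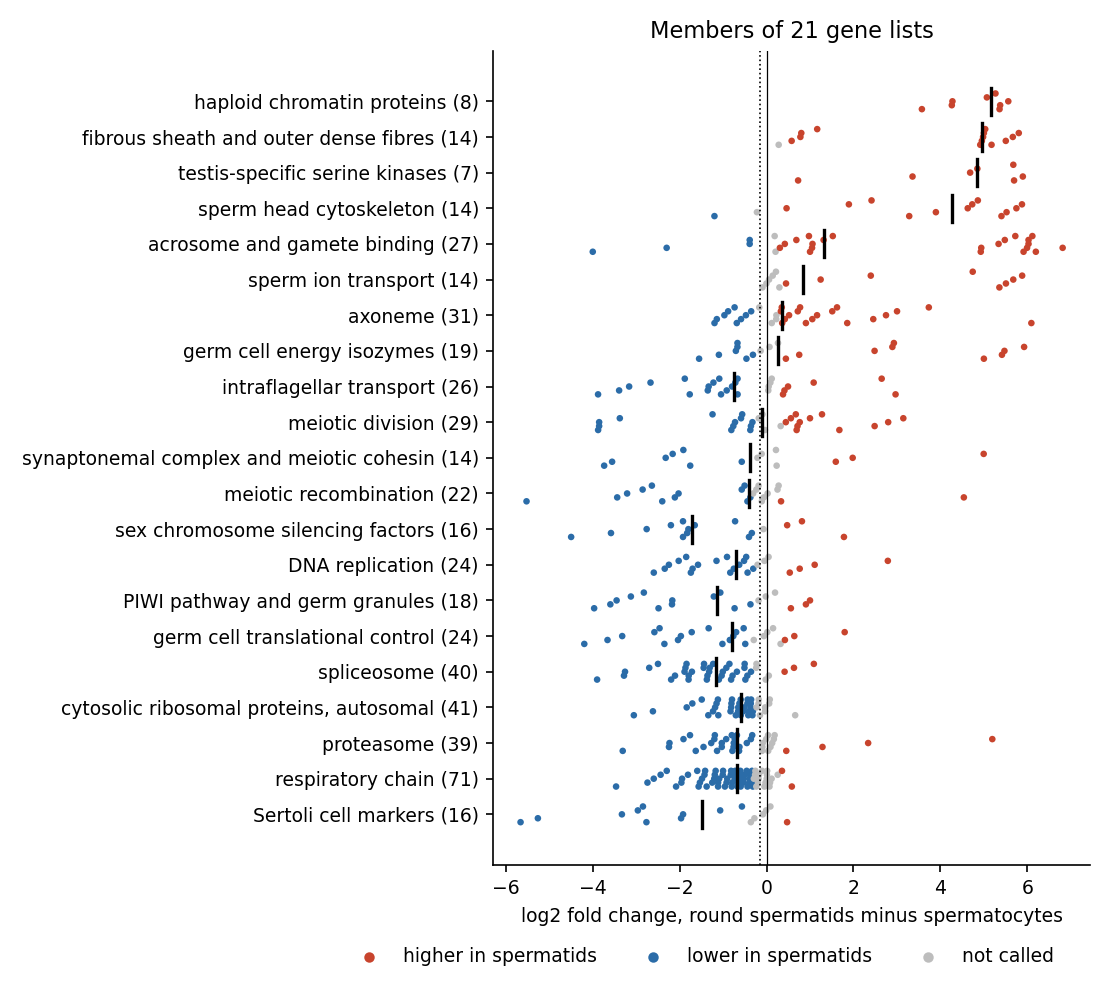
Log2 fold change of each measured member of 21 gene lists (round spermatids minus spermatocytes; number of members in parentheses), with red points for genes called higher, blue for called lower and grey for not called. Black bars are list medians, the dotted line is the median of genes with a signal of 100 or more in at least 1 cell type (-0.15); the first 4 lists lie far to the right, and the sex chromosome silencing, PIWI, spliceosome and Sertoli lists to the left.

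Among the 10 level genes with the highest signal were genes of very different kinds. Tmsb10, which binds actin monomers, was at 31044 and 30507 in spermatocytes and 28524 and 29795 in spermatids, and its interval ran from -0.31 to 0.16. Ppp1cc, whose testis form is the phosphatase of sperm motility, had a log2 fold change of 0.003 and an interval of -0.23 to 0.24. Pabpc1, the poly(A) binding protein, was at 21993 and 23042 in spermatocytes and 22055 and 21151 in spermatids, and Phf7, a reader of histone marks in the male germ line, at 23046 and 22603 in spermatocytes and 21127 and 20432 in spermatids. Gstm5, a glutathione transferase, Pebp1, the chaperonin subunit Tcp1 and Lyar, a nucleolar protein, had log2 fold changes of 0.17, 0.027, -0.11 and -0.11. These values are of 1 probe set each: the second probe set of Pabpc1 was called lower, at -3.40, as was that of Ppp1cc, at -1.03, and 1 of 5 probe sets of Tmsb10 and of Phf7 was called higher. Of the 3216 level genes, 2348 were level under cyclic loess and equal medians as well, and 2547 with each wild type array left out in turn.

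Chaperones included testis members that were on and general members that were level or lower. Of 36 members, 12 were higher (33.3%), 13 lower (36.1%) and 20 level, near the shares over all genes, with a median of -0.25 that equal medians turn to 0.13. Pdilt, a testis protein of the disulphide isomerase family, rose by 5.94, Hspa1l, the testis HSP70 gene of spermatids, by 5.32, and Calr3, calsperin, by 5.06. Hspa2, the HSP70 gene of spermatocytes, was level at 16423 and 15686 in spermatocytes and 11913 and 11810.0 in spermatids. Canx, calnexin, fell from 4106 ± 44.9 to 810.4 ± 106 (SD, n = 2), Hspa8 by 2.20 and Hsph1 by 1.46, with 1 of the 2 probe sets of Hsph1 called higher.

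Cholesterol synthesis genes moved both ways, 7 of 20 higher and 10 lower, with a median of -0.28 that equal medians turn to 0.094. Cyp51, the lanosterol demethylase that yields meiosis-activating sterols, was on at 87.6 and 102 in spermatocytes and 1534 and 1466 in spermatids, and Nsdhl and Fdft1, squalene synthase, rose by 2.22 and 1.57. Of the 3 probe sets of Cyp51, only 1 was called higher and 0 lower, and the lowest was at -0.091. Insig1, Tm7sf2 and Lss, the enzyme just before Cyp51, fell by 1.70, 1.34 and 1.29. In polyamine control, Oaz3, the antizyme of the haploid phase, was at 443 and 311 in spermatocytes and 11556 and 11941 in spermatids, while the general antizyme genes Oaz1 and Oaz2 fell by 1.63 and 1.03 (0.13 for Oaz2 with the median probe set). Azin2, an antizyme inhibitor, rose by 3.75, and Sat1, which acetylates polyamines, was below 42 on all 4 arrays.

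Ubiquitin genes contained the pair of RAD6 homologs. Ube2a, the X-linked gene of HR6A, was on, at 65.6 and 50.8 in spermatocytes and 2218 and 2330.0 in spermatids, and Ube2b, the autosomal gene of HR6B, was level by rule and higher by 0.57, at 2855 and 3349 in spermatocytes and 4599.5 and 4612 in spermatids. Both Ube2a probe sets were called higher, with log2 fold changes of 0.60 and 5.30, and of 4 Ube2b probe sets 1 was higher and 1 lower. Rnf20, a ligase that works with the RAD6 enzymes on histone H2B, was off at 701 and 746 in spermatocytes and 39.8 and 50.5 in spermatids. Ube2j1, a conjugating enzyme of the endoplasmic reticulum, had 2.06 on 1 probe set and -1.64 on the other, both called, Uba6 fell by 2.47 and Ube2n had 0.68 (-0.59 with the median probe set). Over the 15 measured genes, 7 were higher and 6 lower, and the median of -0.30 became 0.074 under equal medians. Among chromatin modifiers, 8 of 31 were higher (25.8%) and 18 lower (58.1%). Of genes with a signal of 100 or more in at least 1 cell type, 37.8% were higher and 45.5% lower. The median of these modifiers was -0.74, or -0.36 under equal medians and -0.39 with the median probe set of each gene. Suv39h2, the testis methyltransferase of histone H3 lysine 9, was on at 37 and 55.9 in spermatocytes and 1079 and 955 in spermatids, Dnmt3l, a cofactor of DNA methylation, rose by 3.99 and Hdac11 by 2.52. Dnmt1, the maintenance methyltransferase, fell from 1668 ± 79.4 to 128 ± 38.3 (SD, n = 2), and Sirt1 by 3.29.

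The X chromosome differed from the autosomes in the counts over all its genes. Of 617 X-linked genes 280 (45.4%) were higher and 69 (11.2%) lower, against 33.1% and 30.4% of 17404 autosomal genes. With a signal of 100 or more in at least 1 cell type, 161 of 199 X-linked genes (80.9%) were higher and 24 lower. The autosomal shares were 36.8% and 46.3% of 10116 such genes. This limit can be met through spermatids alone, which favours rises from low signals. It was met in spermatocytes by only 67 of the 199 X-linked genes, against 8597 of the 10116 autosomal ones. Of 418 X-linked genes below 100 in both cell types, 28.5% were higher, near the 28.0% of all such genes. A signal of 100 or more was reached by 10.9% of X-linked genes in spermatocytes and by 29.0% in spermatids, whereas the shares on the autosomes were 49.4% and 51.4%. On genes made up 12.5% of the X-linked genes (77) and 3.72% of the autosomal ones, and level genes 2.92% (18) against 18.3%. Off and level both require a signal of 100 or more in spermatocytes. Of the 67 X-linked genes that reached it, 5 were off and 18 level. On the autosomes these numbers were 251 and 3190 of 8597. The number of X-linked off genes ranged from 0 to 6 when 1 array was left out and was 0 without spermatocyte replicate 2. Over all genes the median log2 fold change was 0.30 for X-linked and 0.14 for autosomal genes. Among genes with a signal of 100 or more in spermatocytes, a limit that favours falls on every chromosome, 31 of 67 X-linked genes were higher and 24 lower, with a median of 0.28, against 26.7% and 54.4% of 8597 autosomal genes and a median of -0.49. Under equal medians 493 X-linked genes were higher and 42 lower, the medians were 0.67 and 0.51, and 9 X-linked genes were level.

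**Figure D4:**
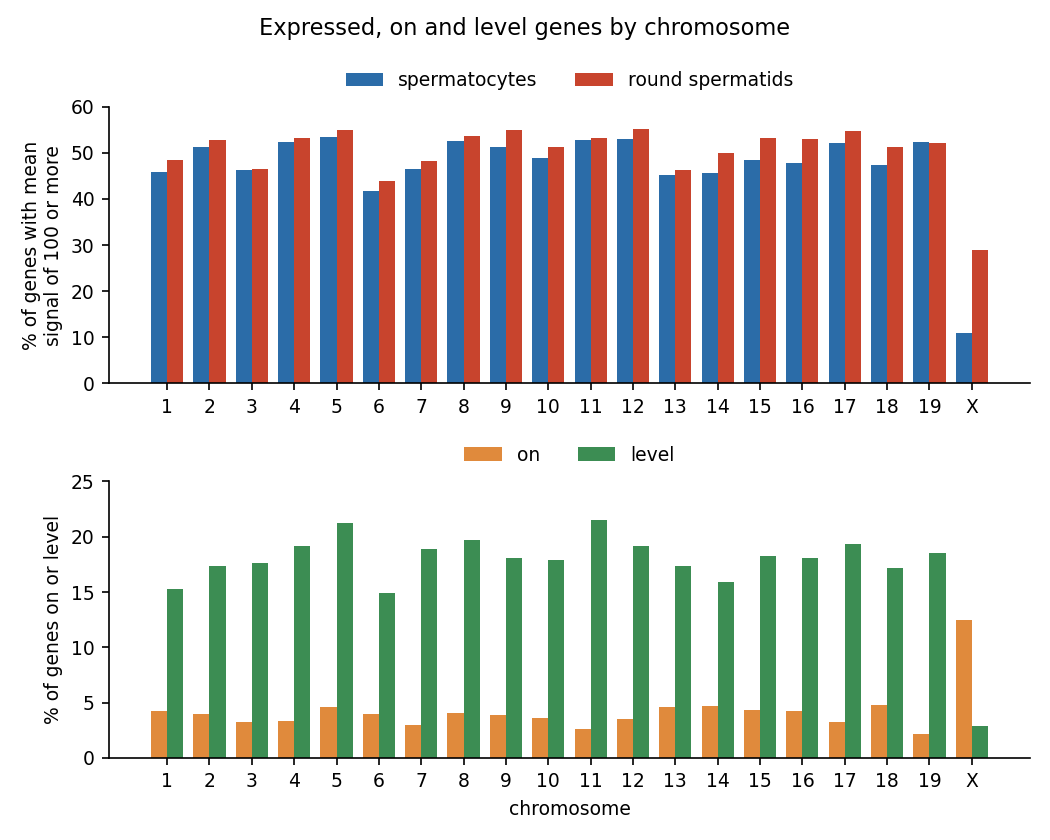
Upper panel: percentage of measured genes of each chromosome with a mean signal of 100 or more in spermatocytes and in round spermatids. Lower panel: percentage of genes that were on or level; the X chromosome, at the right, has the lowest share of expressed genes in spermatocytes (10.9%), the highest share of on genes (12.5%) and the lowest share of level genes (2.92%) of the 20 chromosomes shown.

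All 13 measured X-linked genes known from spermatids were higher, with a median of 4.86. Cypt1, a basic protein of the spermatid nucleus, was at 148 and 77.2 in spermatocytes and 6821 and 6296 in spermatids, Cypt3 rose by 5.45, and Zcchc13, a zinc finger gene, by 5.86. The 6 X-linked genes with the largest rise were Fam122c, Cldn34b2, Samt2b, Tcp11x2, Fam47c and Ppp1r2-ps7, with log2 fold changes from 6.03 to 6.27. None of the 6 exceeded 42 on a spermatocyte array. The 6 largest falls on the X chromosome started from signals below 256. Nxf3, an export factor paralog, fell from 118 ± 31.6 to 12 ± 0.823 (SD, n = 2), Tsx, a testis gene, from 213 ± 47.5 to 26.5 ± 6.02, and Mageb16, Hmgb3 and Lonrf3 had log2 fold changes of -3.07, -2.90 and -2.77. Ubqln2 had -3.14 but 0.15 as the median of its probe sets.

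X-linked genes of housekeeping processes rose in part. Of 27 such genes 18 (66.7%) were higher and 1 (3.7%) lower, beside 45.4% and 11.2% of all X-linked genes. In both cell types 14 of the 27 were below 100. Their median log2 fold change was 0.68, or 0.28 with the median probe set of each gene. Stag2, a cohesin subunit, was on at 25.9 and 20.3 in spermatocytes and 876 and 724 in spermatids, and Cul4b, a ubiquitin ligase scaffold, at 55.8 and 50.4 in spermatocytes and 2264 and 1948 in spermatids, and both were below 56 on the spermatocyte arrays. Usp9x, a deubiquitinase, had 4.22 on 1 probe set and a median of -0.0032 over 7. Hprt, of purine salvage, and Ddx3x, a helicase, had log2 fold changes of -0.13 and -0.13 and were not called, Hprt remaining below 76 on all 4 arrays, while the other 2 probe sets of Ddx3x were called lower, down to -2.30. Slc25a5, the ADP and ATP carrier of somatic cells, fell by 1.15, beside the fall of its autosomal germ cell paralog Slc25a31 above. The ribosomal protein gene Rps4x had 0.45, and -0.33 with the median probe set. On the Y chromosome 6 of 7 listed genes were higher. Eif2s3y, a translation initiation subunit, was on at 29.8 and 30.3 in spermatocytes and 731 and 658 in spermatids, Uba1y, a ubiquitin-activating enzyme, rose by 3.20, Usp9y by 3.01 and the zinc finger gene Zfy2 by 2.86. Eif2s3y was on by 1 of its 2 probe sets, the other being at -0.0059 and not called.

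Autosomal copies of X-linked genes are thought to stand in while the X chromosome is silent. In each of 10 measured pairs the X-linked parent had a mean below 100 in spermatocytes, and each copy one of 286 or more on its own probe set. The pairs were taken from a list made by hand and named after their values were seen. Pgk1 was at 84.9 and 81.8 in spermatocytes and 264 and 236 in spermatids, and its copy Pgk2 rose from 1264 ± 275 to 9295 ± 61.4 (SD, n = 2). Cstf2, of the polyadenylation complex, was on, from 54.9 ± 4.78 to 1715 ± 196, while its copy Cstf2t fell from 5062 ± 360.5 to 2005 ± 244. Timm8a2, the copy of a mitochondrial import gene, was off, with a log2 fold change of -3.62, and its parent Timm8a1 was lower as well, by 0.70. Pdha1, the parent of Pdha2, stayed at 64 and 62.4 in spermatocytes and 69.6 and 57 in spermatids, though its second probe set was called higher. Utp14a rose by 3.36, and its copy Utp14b by 1.88. The remaining pairs were Rbmx and Rbmxl2, Fam50a and Fam50b, Cetn2 and Cetn1, Prps1 and Prps1l1, and Rpl39 and Rpl39l, and the copies of these 5 were all level. Parent and copy are alike in sequence, and whether a probe set also binds the partner was not analysed here.

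Probe sets of the same gene moved in opposite directions for 313 of 9010 genes with 2 or more probe sets (3.47%), counting genes with 1 probe set called at least 2-fold higher and another called at least 2-fold lower. For 251 of these, both probe sets reached 100 on both arrays of their high cell type. The largest gap was in Rnf138, a ubiquitin ligase, where 1 probe set was at 998 and 1052 in spermatocytes and 4834 and 5127 in spermatids and another at 3416 and 4444 in spermatocytes and 117 and 123 in spermatids. Its spermatid arrays were thus the highest by the first and the lowest by the second, at 2.28 ± 0.11 and -5.02 ± 0.16 on the log2 scale. Tor1aip1, of the nuclear membrane, started from like signals and went to 7105 and 6832 by 1 probe set and to 49.1 and 56.3 by the other. In Tgfbr1, a receptor of TGF-beta, the values were 5.35 and -1.65, and in Glul, glutamine synthetase, 4.98 and -1.73. Mtfr1, of mitochondrial fission, had 1.66 and -4.84, Zfp597 4.13 and -2.85, Ltn1, a ubiquitin ligase of ribosomes, 3.67 and -2.89, and Cul4b 5.31 and -1.78. For such genes the direction given depends on the probe set, and the transcript ends that each probe set covers were not analysed here.

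**Figure D5:**
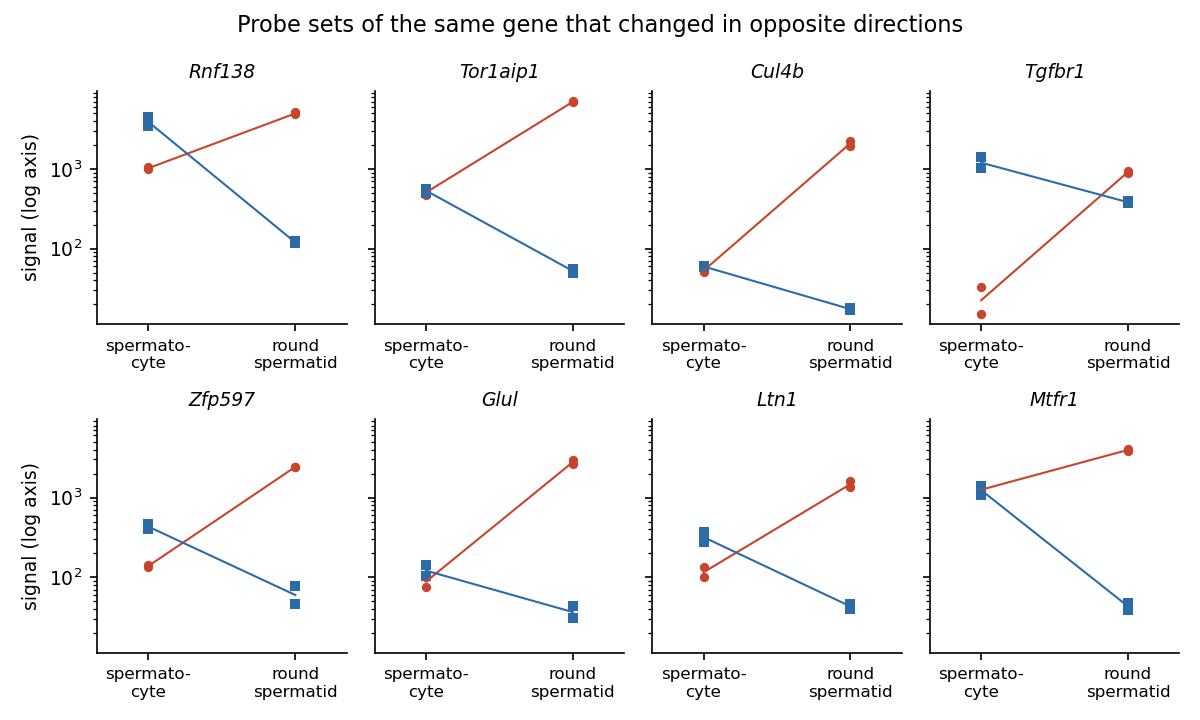
Signal (y axis, log scale) of the 2 probe sets with the most opposed change in each of 8 genes, in wild type spermatocytes and round spermatids; points are single arrays (n = 2 per cell type), lines join the group means. Red circles are the probe set that rose and blue squares the one that fell, and in Rnf138, for example, the lines cross.

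Promoters were searched for 4 motifs, in RefSeq windows of 250 bases before to 50 after a gene start on build GRCm38.p6. Of the 736 on genes, 591 had 763 such promoters, and a promoter counted once however often and on whichever strand it held the motif. The full CRE site TGACGTCA, bound by the CREB and CREM factors and identical on both strands, was in 2.36% of promoters of on genes, 2.56% of off genes, 3.70% of level genes and 2.49% of all measured genes. The MYB site CAACNGTT was in 3.28%, 1.28% and 1.87% of these, against 1.70% of all measured genes. The TATA box core TATAAA was in 11.7%, 6.84% and 6.37%, against 9.77%. The X-box core, bound by RFX factors, was rarer, in 0.524%, 0.427% and 0.563%, against 0.364%. In the 70 promoters of X-linked on genes, CRE sites numbered 0 and MYB sites 5, in Ctag2, Gm9, Prr32, Ribc1 and Samt3. A match is a description of the letters and does not show that a factor binds there.

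The CRE site stood ahead of genes of each behaviour, and the following 120 bases before the start show this for genes that were chosen for their site after their values were seen. Ccin, the head protein calicin, and Suv39h2 were on, Spag4 and Izumo1 rose at least 8-fold, Flcn, folliculin, was off with a log2 fold change of -3.96, and Ldha, the somatic lactate dehydrogenase, was level at -0.25. Capitals mark the site.
Ccin (chr4:43983384-43983503, plus strand): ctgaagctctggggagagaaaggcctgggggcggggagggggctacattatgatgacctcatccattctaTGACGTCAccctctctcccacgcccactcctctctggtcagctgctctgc
Spag4 (chr2:156065093-156065212, plus strand): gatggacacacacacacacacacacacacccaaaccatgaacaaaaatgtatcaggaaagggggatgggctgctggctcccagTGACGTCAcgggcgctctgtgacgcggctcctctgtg
Izumo1 (chr7:45621691-45621810, plus strand): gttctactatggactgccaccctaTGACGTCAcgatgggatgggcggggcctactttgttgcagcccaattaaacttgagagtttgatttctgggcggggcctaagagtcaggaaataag
Suv39h2 (chr2:3474987-3475106, minus strand): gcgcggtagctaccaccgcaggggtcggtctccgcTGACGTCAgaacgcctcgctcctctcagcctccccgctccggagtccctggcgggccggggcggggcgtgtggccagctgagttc
Flcn (chr11:59810040-59810159, minus strand): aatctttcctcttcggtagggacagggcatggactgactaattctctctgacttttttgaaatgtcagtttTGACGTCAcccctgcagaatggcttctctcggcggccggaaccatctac
Ldha (chr7:46845684-46845803, plus strand): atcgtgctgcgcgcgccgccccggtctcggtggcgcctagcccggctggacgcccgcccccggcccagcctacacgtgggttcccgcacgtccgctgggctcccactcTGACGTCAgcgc

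For the MYB site, Spag6, Iqcf1, a testis protein that binds calmodulin, and the X-linked gene Ctag2 serve as examples, all of them on and chosen in the same way. Iqcf1 had a log2 fold change of 5.79 and Ctag2 of 5.54. In Spag6 the site reads on the opposite strand, and in the other two on both strands. Capitals again mark the site in the 120 bases before the start.
Spag6 (chr2:18698902-18699021, plus strand): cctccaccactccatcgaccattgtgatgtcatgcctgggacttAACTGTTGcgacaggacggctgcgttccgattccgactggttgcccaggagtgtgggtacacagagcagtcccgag
Iqcf1 (chr9:106499847-106499966, plus strand): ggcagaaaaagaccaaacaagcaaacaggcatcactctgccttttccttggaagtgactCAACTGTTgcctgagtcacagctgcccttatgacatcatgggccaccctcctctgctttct
Ctag2 (chrX:65047524-65047643, plus strand): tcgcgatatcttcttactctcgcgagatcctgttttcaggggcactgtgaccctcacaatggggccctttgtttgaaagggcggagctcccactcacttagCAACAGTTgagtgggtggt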

How the data were processed

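Late spermatocytes and round spermatids of Hr6b+/+ and Hr6b-/- mice were hybridised to Affymetrix Mouse Genome 430 2.0 arrays, 2 arrays per group. The authors made log2 values from the scanned arrays with RMA, which corrects background, equalises the distribution of all arrays and summarises each probe set. The deposited log2 values of the whole series were used as given, and no tool version is given in the sources used here. Because RMA gives all arrays 1 distribution, a change of total RNA per cell does not show in these values.

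limma 3.58.1 in R 4.3.3 was fitted to 45037 probe sets on 8 arrays with 4 group means, and wild type spermatids were contrasted with wild type spermatocytes. In this fit the Hr6b-/- arrays add only to the estimate of spread (4 residual degrees of freedom). Cyclic loess and equal medians were computed over all 8 arrays. P-values were adjusted by the Benjamini-Hochberg method over all probe sets. Probe sets were named from the platform annotation: 34945 had 1 gene, 932 several and 9160 none, and 18032 of 18193 symbols were found in RefSeq. Standard errors and 95% intervals come from limma, and mean ± SD is over 2 arrays on the linear scale. The number of arrays limits the precision. The fit was tested on simulated data before use.

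Genes were named by a rule: lead genes of each list, the members of a list with the 3 largest calls each way, the 12 largest rises and falls, the 10 level genes with the highest signal, 6 X-linked genes each way, and 8 genes with opposed probe sets. H2al2a, the parents and copies, Gata4, Fshr and the promoter examples were named after their values were seen. The members and lists were chosen with earlier results of these data known. Alternatives were the wild type arrays alone, a replicate block, cyclic loess, equal medians, a signal filter, a test against 2-fold, other limits, the median probe set of a gene, another variance model and each wild type array left out. RefSeq promoters were matched by symbol to 14452 genes and searched with Python 3.11.15.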

Additional observations from a re-analysis of the deposited data

How the results depend on the processing

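The count of calls moved by over 1.5 times with a test against a 2-fold change, with equal medians and with a signal filter, and which setting is right was not tested. With cyclic loess the median log2 fold change of X-linked genes was 0.19 (0.30 in the report), 9 X-linked genes were level and the median of the ubiquitin list was 0.067. With the medians of expressed autosomal probe sets set equal, 37209 probe sets were called and 27885 were higher, 155 genes were off, the medians of X-linked and autosomal genes were 0.67 and 0.51, and on the X chromosome 493 genes were higher, 42 lower, 9 level and 0 off. The list medians of spermatogonial markers, chaperones, cholesterol synthesis and ubiquitin genes then became 0.16, 0.13, 0.094 and 0.074, and the log2 fold changes of Cdc20 and Rplp0 0.0029 and 0.0072. Testing only probe sets with a signal of 100 or more on at least 2 wild type arrays, which leaves fewer probe sets, gave 15337 calls, 6176 of them higher, medians of 2.77 for X-linked and -0.19 for autosomal genes, 157 X-linked genes higher, 21 lower and 3 off, and medians of 0.033 for cholesterol synthesis and 0.087 for ubiquitin genes. The 2 spermatid arrays alone can meet this filter, which favours rises from low signals. Testing against a 2-fold change, a stricter test, gave 8759 calls, 3502 higher and 5257 lower, 147 and 20 on the X chromosome, and 145 genes with opposed probe sets.

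With the median of the probe sets of a gene, 165 genes were off and the X-linked median was 0.22. The list medians of the transcription factors and of the X-linked ribosomal proteins were then -0.0034 and -0.13, and 14 named genes turned: Ubqln2 (0.15), Crem (-1.21), Cdyl (-0.58), Kif3b (-0.40), Rnf17 (-0.18), Pum2 (-1.42), Rps4x (-0.33), Psme3 (-0.099), Oaz2 (0.13), Ube2n (-0.59), Usp9x (-0.0032), Rnf138 (-4.83), Zfp597 (-1.04) and Mtfr1 (-1.59). A signal limit of 200 left 1 X-linked gene off and 5 level, a 4-fold limit gave 637 genes off, 12 of them X-linked, and a bound of 1.5-fold gave 1420 level genes, 8 of them X-linked.

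Leaving out each wild type array in turn, the lone array being assumed to vary like the other groups, gave 20719 to 22474 calls (9294 to 10663 higher, 11280 to 11811 lower), 685 to 798 genes on, 225 to 288 off, 2892 to 3137 level and 314 to 325 with opposed probe sets. On the X chromosome 242 to 260 genes were higher, 55 to 72 lower, 78 to 80 on, 0 to 6 off (0 without spermatocyte replicate 2) and 13 to 17 level, with medians of 0.28 to 0.33 against 0.11 to 0.15 on the autosomes.

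The replicate numbers are not stated to pair the samples, and the deviations of same-numbered arrays correlated at -0.13. The fit with the replicate number as a block gave 23610 calls, 11416 higher and 12194 lower, and 1 of 290 named genes lost its call. A crossed replicate block, chosen after seeing the data, gave 23351 calls. The 4 wild type arrays alone gave 22562 calls, and empirical Bayes with a trend and robust spread 24079. Signals near background limit what can be said of genes below 100 in both cell types.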

Other observations

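Probe sets without a gene name in the annotation changed as well. Of 9160 such probe sets 1863 were called higher and 1404 lower in spermatids from limma, 70 met the rule for on and 67 that for off. Of the 932 probe sets annotated to several genes 264 were higher and 290 lower, with 35 on and 11 off.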
